A study of Homo sapiens with 6 samples.

Results

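Fucosyl-, sialyl- and N-acetylgalactosaminyltransferases (GalNAc-transferases) were examined in the established human cell line J82, which derives from a bladder cancer. Families of enzymes that extend or branch sugar chains were included. Members were all protein-coding genes in the count table whose symbol was FUT, ST3GAL, ST6GAL, ST6GALNAC, ST8SIA, GALNT, B3GNT, B3GALT, B4GALT, B4GALNT, GCNT or MGAT followed by digits only, which gave 83 of 57820 genes. RNA-seq of 6 libraries was available, with 3 in the control group and 3 in the group labelled FOXC1 KO. FOXC1 is a forkhead transcription factor. The knockout cells had received lentiCRISPR v2, a lentivirus carrying Cas9 and a guide, whereas the control cells carried a vector, and both were selected with puromycin and grown in DMEM with fetal bovine serum. The study's methods speak of knockout clones without giving how many the libraries come from. Nothing states that the 3 libraries of a group came from separate cultures, so p-values measure the spread between these libraries, which may be technical.

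Glycosyltransferases sit in the Golgi membrane and each moves 1 kind of sugar from an activated donor to a defined position on a growing chain. GALNT enzymes start mucin-type O-glycans by placing GalNAc on serine or threonine, MGAT enzymes set the number of branches on N-glycans, and galactosyl- and N-acetylglucosaminyltransferases lengthen the arms. Fucosyl- and sialyltransferases then cap the arms and so make Lewis antigens, sialyl-T and gangliosides, several of which are used as tumor markers of epithelia including the urothelium. Transcript levels alone were measured here, not enzyme activity or glycans.

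Library totals lay between 18408134 and 25350908 counts. The targeted gene itself was not lower in the KO libraries. FOXC1 had 18.4, 16.9 and 19.3 CPM (counts scaled to library size) in the control and 24.1, 22.2 and 21.1 CPM in the KO libraries, so the groups did not overlap and KO was the higher (log2 fold change 0.30, SE 0.091, adjusted p = 0.0127). The transcript was thus not reduced. The study's methods state that knockout clones were checked by western blotting, and the study reports lower FOXC1 protein in its J82 knockout cells by that method. Protein and reads at the guide site were not analysed here. KO stands throughout for the libraries labelled FOXC1 KO. Of 15 urothelial markers, 8 were not tested because they stayed at 9 counts or fewer, among them the uroplakins, KRT5, KRT20, TP63 and CDH1. The other 7 were KRT7, KRT8, KRT18, KRT19, GATA3, PPARG and EPCAM. Of these, 6 were called lower in KO (KRT7 was not), beside 8.39% of all genes tested. The list summed to between 3180 and 4000 CPM in control and between 2490 and 2760 CPM in KO. KRT8, KRT7 and KRT18 had the largest control means, at 1658, 992 and 544 CPM. The part of the urothelial markers in the results on glycosyltransferases was not tested. Among markers of other cell types, CD3E was at 0 in every library and PTPRC, VWF and HBB stayed at 9 counts or fewer, whereas CD14 was called higher in KO, and these markers summed to between 3.48 and 4.32 CPM in control and between 5.51 and 6.33 CPM in KO.

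Of the 83 members, 54 passed the filter on low counts and were tested. A gene was called when its Benjamini-Hochberg adjusted p in the quasi-likelihood test of edgeR was under 0.05 and its fold change over 1.3. By this rule 10 members fell in KO (8.39% of all genes tested were called lower) and 9 rose (7.57% of all genes were called higher). The 19 called members were 35.2% of those tested, and 16.0% of all 15647 genes tested were called in either direction. The members that fell were FUT9, ST6GAL1, ST8SIA6, GALNT1, ST3GAL1, GALNT3, B3GNT3, FUT10, GALNT12 and ST3GAL6. Those that rose were GALNT6, B4GALNT1, FUT8, B3GNT5, MGAT5, ST3GAL4, ST3GAL3, GALNT16 and ST8SIA4. Both directions occurred within the sialyltransferases (4 of 14 tested fell, 3 rose), within the GALNT genes (3 of 11 fell, 2 rose) and within the fucosyltransferases (2 of 6 fell, 1 rose). Among the 23 tested genes grouped by symbol as extension and branching (B3GNT, B3GALT, B4GALT, B4GALNT, GCNT and MGAT), 1 fell and 3 rose. In bulk RNA, fewer cells that express a gene and less RNA per cell cannot be told apart.

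The median log2 fold change of the tested members was 0.083, beside -0.00084 over all genes tested. The 4 members called at over 2-fold (FUT9, ST8SIA6, ST6GAL1 and B3GNT3) were lower in KO. Of all genes tested 4.07% were called at over 2-fold in either direction. The share of all genes lower at that threshold is not given here, so the direction of these 4 members cannot be weighed against it. In 28 of the 54 tested members the CPM of the control and KO libraries did not overlap, against 41.3% of all genes tested. ST8SIA4 was the single called member whose groups overlapped. With 3 libraries against 3, the two-sided exact permutation p of a single gene cannot go below 0.1, a value reached by the other 18 called members. The called members had at least 11 counts in every library. They lay on 13 chromosomes.

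**Figure D1:**
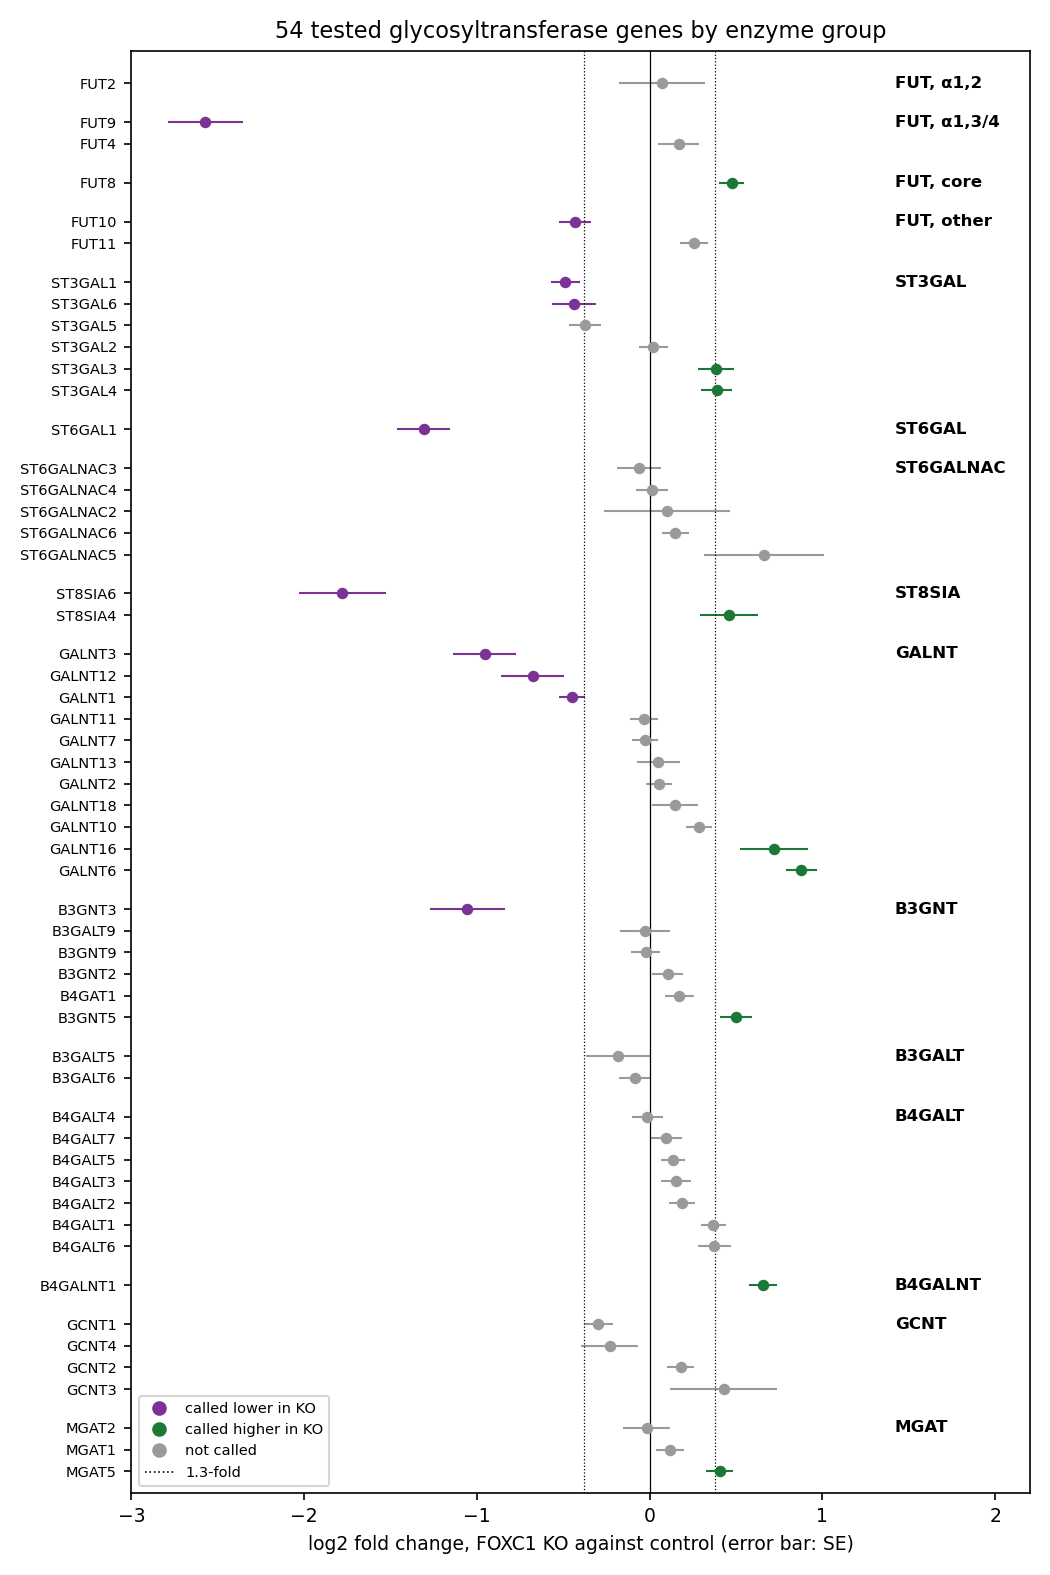
Log2 fold change (KO minus control, horizontal axis) of the tested members, with bars for the standard error, dotted lines at 1.3-fold and genes grouped by enzyme role. Called members that were lower and higher in KO are coloured, and the values run from -2.57 for FUT9 to 0.88 for GALNT6.

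Filter losses were large among the members: 29 were not tested, since none exceeded 15 counts in any library. FUT5, GALNT8 and ST6GALNAC1 had 0 counts in all 6 libraries. The others were FUT1, FUT3, FUT6, FUT7, B3GALT1, B3GALT2, B3GALT4, B3GNT4, B3GNT6, B3GNT7, B3GNT8, B4GALNT2, B4GALNT3, B4GALNT4, GALNT4, GALNT5, GALNT9, GALNT14, GALNT15, GCNT7, MGAT3, ST6GAL2, ST8SIA1, ST8SIA2, ST8SIA3 and ST8SIA5. At 3 counts or fewer in every library, 18 of the 29 were under or at the limit that a count of 0 allows. A difference in these genes was not detectable at this depth. They include FUT3, FUT6 and FUT7, the fucosyltransferases that make sialyl Lewis a or sialyl Lewis x, and B4GALNT2, which makes the Sd(a) antigen.

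FUT9 adds fucose in α1,3 linkage to make Lewis x and lies at chr6:96463850-96663488 on the plus strand of hg19 (ENSG00000172461.6). It had 3.21, 4.05 and 3.69 CPM in the control libraries and 0.706, 0.555 and 0.595 CPM in the KO libraries. All control values lay above all KO values. From 3.65 ± 0.424 CPM (SD, n = 3) FUT9 fell to 0.619 ± 0.0785 CPM, a 5.95-fold lower level and the strongest change among the tested members (log2 fold change -2.57, SE 0.22, adjusted p = 1.72e-10). The KO values rest on 13 or 14 counts a library. ST6GAL1, which caps N-glycan arms with α2,6-linked sialic acid and lies at chr3:186648114-186796341 on the plus strand, had 5.17, 5.20 and 6.01 CPM in control and 2.28, 2.34 and 2.0 CPM in KO. Its groups were well apart, and it fell from 5.46 ± 0.478 to 2.21 ± 0.183 CPM (log2 fold change -1.31, SE 0.15, adjusted p = 8.88e-08).

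The 250 bases before the RefSeq start of these 2 genes are shown because they fell most among called members with a single RefSeq window, FUT9 at chr6:96015724-96015973 and ST6GAL1 at chr3:186930276-186930525, both on the plus strand of GRCh38.p14. Capitals mark CG dinucleotides, the sites at which promoters can be methylated.
FUT9: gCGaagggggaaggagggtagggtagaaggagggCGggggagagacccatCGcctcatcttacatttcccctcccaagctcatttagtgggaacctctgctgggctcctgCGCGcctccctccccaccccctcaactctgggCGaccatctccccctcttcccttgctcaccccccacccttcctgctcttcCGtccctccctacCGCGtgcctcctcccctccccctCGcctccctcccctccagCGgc
ST6GAL1: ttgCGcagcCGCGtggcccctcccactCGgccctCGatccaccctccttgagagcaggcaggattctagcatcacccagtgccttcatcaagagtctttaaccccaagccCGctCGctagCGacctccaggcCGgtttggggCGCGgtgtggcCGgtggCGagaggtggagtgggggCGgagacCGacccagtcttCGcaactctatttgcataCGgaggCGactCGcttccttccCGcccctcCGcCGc
The FUT9 sequence held 11 CG dinucleotides at 66.8% G and C, while that of ST6GAL1 held 22 at 65.6%. Over all 35116 RefSeq windows of this length the medians were 11 and 58%. A search on both strands for the core letters bound by forkhead factors, GTAAACA or GTAAATA, matched neither sequence. It matched 0 of 24 windows belonging to the 14 called members with a window, 4 of 99 member windows (4.04%, in B4GALT2, B4GALT3, MGAT1 and ST6GALNAC6) and 5.27% of all windows. Such matches are a description of letters, and windows were found for 58 of the 83 members.

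Of the remaining fucosyltransferases, FUT8 adds the core fucose of N-glycans in α1,6 linkage and rose. Its values were 81.1, 83.9 and 89.5 CPM in control and 125, 110 and 119 CPM in KO. No KO library fell within the control range (84.9 ± 4.26 and 118 ± 7.51 CPM, log2 fold change 0.48, SE 0.073, adjusted p = 9.76e-06). FUT10, listed among enzymes that fucosylate proteins directly, had 17.7, 17.7 and 18.9 CPM in control and 13.0, 13.7 and 13.5 CPM in KO. Every KO library was below every control library (log2 fold change -0.43, SE 0.093, adjusted p = 0.000653). Its relative FUT11 had an adjusted p of 0.0156 but missed the fold threshold (log2 fold change 0.26). FUT4, the other expressed gene of the Lewis x branch, was not called, with 8.06 CPM in control and 9.13 CPM in KO (log2 fold change 0.17, SE 0.12, adjusted p = 0.312). FUT4 exons overlap PIWIL4 on the same strand (10.1% of exon length) and PIWIL4-AS1 on the opposite strand (10.9%).

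Within the sialyltransferases, the ST3GAL genes, which attach sialic acid in α2,3 linkage, divided. ST3GAL1, which caps the core 1 O-glycan to make sialyl-T, had 64.8, 52.7 and 60.6 CPM in control and 43.7, 44.8 and 38.5 CPM in KO. The groups did not overlap (59.4 ± 6.13 and 42.3 ± 3.41 CPM, log2 fold change -0.49, SE 0.085, adjusted p = 5.48e-05). ST3GAL4, which acts on type II chains of glycoproteins, had 24.0, 22.5 and 22.6 CPM in control and 27.5, 33.2 and 29.5 CPM in KO. Here KO was higher without overlap (log2 fold change 0.39, SE 0.088, adjusted p = 0.00120). ST3GAL3 also rose, by 0.39 on the log2 scale (SE 0.10, adjusted p = 0.00561), and ST3GAL6 fell by 0.44 (SE 0.13, adjusted p = 0.00911). Without KO replicate 1 the ST3GAL6 value was -0.35 and its adjusted p 0.0590. ST3GAL3 and ST3GAL4 lay just inside the fold threshold, and ST3GAL5, the synthase of ganglioside GM3, just outside it (log2 fold change -0.38, adjusted p = 0.00234). ST3GAL2 was not called.

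ST8SIA6, which adds α2,8-linked sialic acid to O-glycans, had 2.10, 1.80 and 2.28 CPM in control and 0.652, 0.436 and 0.722 CPM in KO. Its control and KO values lay far apart (2.06 ± 0.241 and 0.603 ± 0.149 CPM, log2 fold change -1.78, SE 0.25, adjusted p = 2.36e-06). ST8SIA4, a polysialyltransferase, was called higher but is the least firm call, with 2.58, 2.99 and 2.24 CPM in control and 2.83, 4.12 and 3.65 CPM in KO. KO replicate 1 lay within the control range (log2 fold change 0.46, SE 0.17, adjusted p = 0.0405), and the DESeq2 adjusted p was 0.178. None of the 5 tested ST6GALNAC genes, which sialylate GalNAc, was called by edgeR, with 0 at an unadjusted p under 0.05 and 0 called by DESeq2. ST6GALNAC5 had a log2 fold change of 0.66, with an SE of 0.35 and an adjusted p of 0.154.

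Among the GALNT genes, GALNT6 had 32.2, 23.8 and 27.7 CPM in control and 53.2, 51.6 and 48.8 CPM in KO. All KO libraries stood above the control range. GALNT6 (chr12:51745031-51786651, minus strand of hg19) rose from 27.9 ± 4.18 to 51.2 ± 2.24 CPM, which was the highest positive log2 fold change of a tested member (0.88, SE 0.091, adjusted p = 1.09e-08). GALNT3, mutated in familial tumoral calcinosis, went the other way, with 3.08, 3.03 and 2.59 CPM in control and 1.47, 1.43 and 1.57 CPM in KO. These groups did not overlap (log2 fold change -0.96, SE 0.18, adjusted p = 0.000189).

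GALNT1, the most abundant GALNT transcript, had 222, 257 and 242 CPM in control and 170, 165 and 194 CPM in KO. Its KO libraries were below the control range (240.5 ± 17.5 and 176 ± 15.8 CPM, log2 fold change -0.45, SE 0.075, adjusted p = 3.33e-05). GALNT12 had 3.16, 3.11 and 4.91 CPM in control and 2.66, 2.22 and 2.21 CPM in KO. Control replicate 3 stood above the others, and the log2 fold change of -0.68 (SE 0.18, adjusted p = 0.00550) became -0.42 without it (adjusted p = 0.123). GALNT16 rose at a low level, from 1.51 to 2.49 CPM (log2 fold change 0.72, SE 0.20, adjusted p = 0.00660). By DESeq2 its adjusted p was 0.0533, and without control replicate 3 it was 0.56 higher on the log2 scale (adjusted p = 0.0601). GALNT10 passed the adjusted p alone (log2 fold change 0.28, adjusted p = 0.00511), and GALNT2, at 116 and 120.5 CPM, was not called (adjusted p = 0.639).

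**Figure D2:**
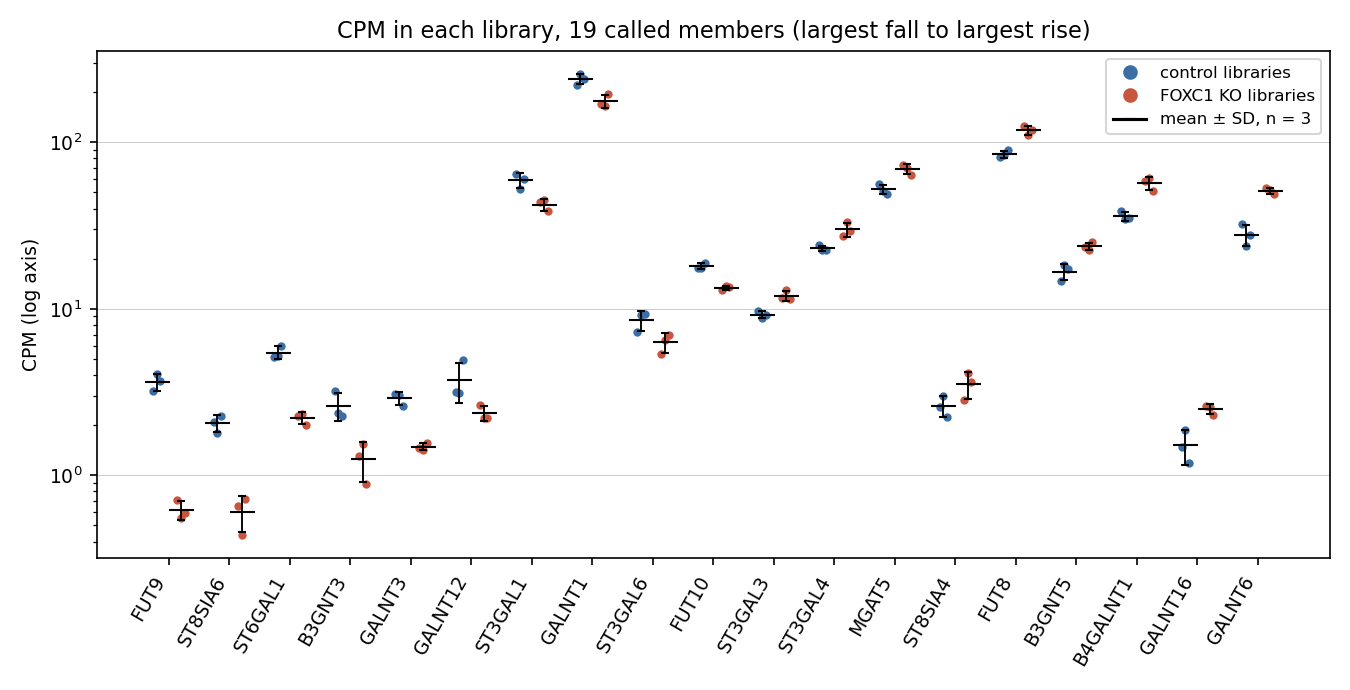
CPM of each library (vertical log axis) for the 19 called members, ordered by log2 fold change, with points for the 3 control (blue) and 3 KO (red) libraries and black marks for mean ± SD. The groups overlap in ST8SIA4 alone, and FUT9 shows the widest gap.

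The 4 called extension and branching enzymes act on glycolipids (B4GALNT1 and B3GNT5), N-glycans (MGAT5) and O-glycans (B3GNT3). B4GALNT1, the GM2/GD2 synthase, had 38.7, 34.7 and 35.0 CPM in control and 58.8, 60.9 and 51.3 CPM in KO. The groups did not overlap (36.2 ± 2.23 and 57.0 ± 5.02 CPM, log2 fold change 0.66, SE 0.083, adjusted p = 3.80e-07), though 27.1% of its exon length overlaps a pseudogene on the opposite strand, SLC26A10P. Opposite-strand genes also overlap the called members GALNT12 (20.9% of exon length, a long noncoding RNA) and B3GNT5 (16.2%, MCF2L2). Overlaps in other called members were smaller. B3GNT5, which starts the lacto series of glycolipids, had 14.7, 18.2 and 17.3 CPM in control and 23.5, 22.5 and 25.1 CPM in KO. It rose without overlap (log2 fold change 0.50, SE 0.095, adjusted p = 0.000164). MGAT5, which adds the β1,6 branch of N-glycans that galectins bind, had 55.9, 51.3 and 49.2 CPM in control and 73.3, 69.8 and 63.9 CPM in KO. KO was higher in all 3 libraries (log2 fold change 0.40, SE 0.078, adjusted p = 0.000204). MGAT5 was called in 4 of the 6 fits that left out 1 library. B3GNT3, which extends core 1 O-glycans, had 3.21, 2.38 and 2.28 CPM in control and 1.3, 1.55 and 0.892 CPM in KO, and was the single extension enzyme that fell (log2 fold change -1.06, SE 0.22, adjusted p = 0.000408).

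None of the 7 B4GALT genes, which add galactose in β1,4 linkage, was called by edgeR or by DESeq2 (3 had an unadjusted p under 0.05), although B4GALT1 (log2 fold change 0.37, adjusted p = 0.000182) and B4GALT6, a lactosylceramide synthase (0.37, adjusted p = 0.00378), passed the adjusted p and lay just under 1.3-fold. GCNT1, which forms core 2 O-glycans, had a log2 fold change of -0.30 (adjusted p = 0.00743) and was not called either. The remaining GCNT genes, both tested B3GALT genes, MGAT1 and MGAT2 did not pass the adjusted p.

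Levels were compared between genes per exon length, as RPKM, which is CPM divided by the exon length in kilobases. The highest members of their enzyme groups in control were B4GALT5 (93.5 RPKM), GALNT1 (46.9), B3GNT9 (14.6), ST6GALNAC4 (12.8), FUT8 (12.2), B3GALT6 (11.0), MGAT1 (7.61), ST3GAL1 (6.76), FUT11 (6.29), GCNT2 (5.76), B4GALNT1 (4.58), FUT4 (1.35), ST6GAL1 (0.490), FUT2 (0.334) and ST8SIA4 (0.333). By CPM the highest member was the same in 14 of the 15 groups, and with the length of the longest transcript in 13. Of the 15 leading genes by RPKM, 6 were called, beside 35.2% of the tested members and 16.0% of all genes tested. FUT8, B4GALNT1 and ST8SIA4 (the least firm call) were higher, and GALNT1, ST3GAL1 and ST6GAL1 were lower. Many of the strongest folds were thus in genes of low level, and 8 of the 19 called members had a control mean under 1 RPKM.

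Shares of the summed RPKM describe the makeup of a group. GALNT1 took between 46.6% and 52.8% of the GALNT sum in the control libraries and between 38.0% and 42.3% in the KO libraries, while GALNT6 took between 3.41% and 4.70% in control and between 7.41% and 8.38% in KO. The GALNT sum itself was 94.4 ± 1.11 RPKM in control and 86.9 ± 2.97 RPKM in KO. FUT9 supplied between 15.7% and 17.3% of the sum of the Lewis-type fucosyltransferases in control and between 2.73% and 2.98% in KO, and FUT4 supplied most of the rest. ST3GAL1 led the ST3GAL genes in control, whereas in KO the means of ST3GAL4 (5.04 RPKM) and ST3GAL1 (4.82 RPKM) were close together. ST8SIA6 held between 39.1% and 47.1% of the small ST8SIA sum in control and between 9.93% and 19.8% in KO. Since a share moves with every gene in its sum, these values were not tested.

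**Figure D3:**
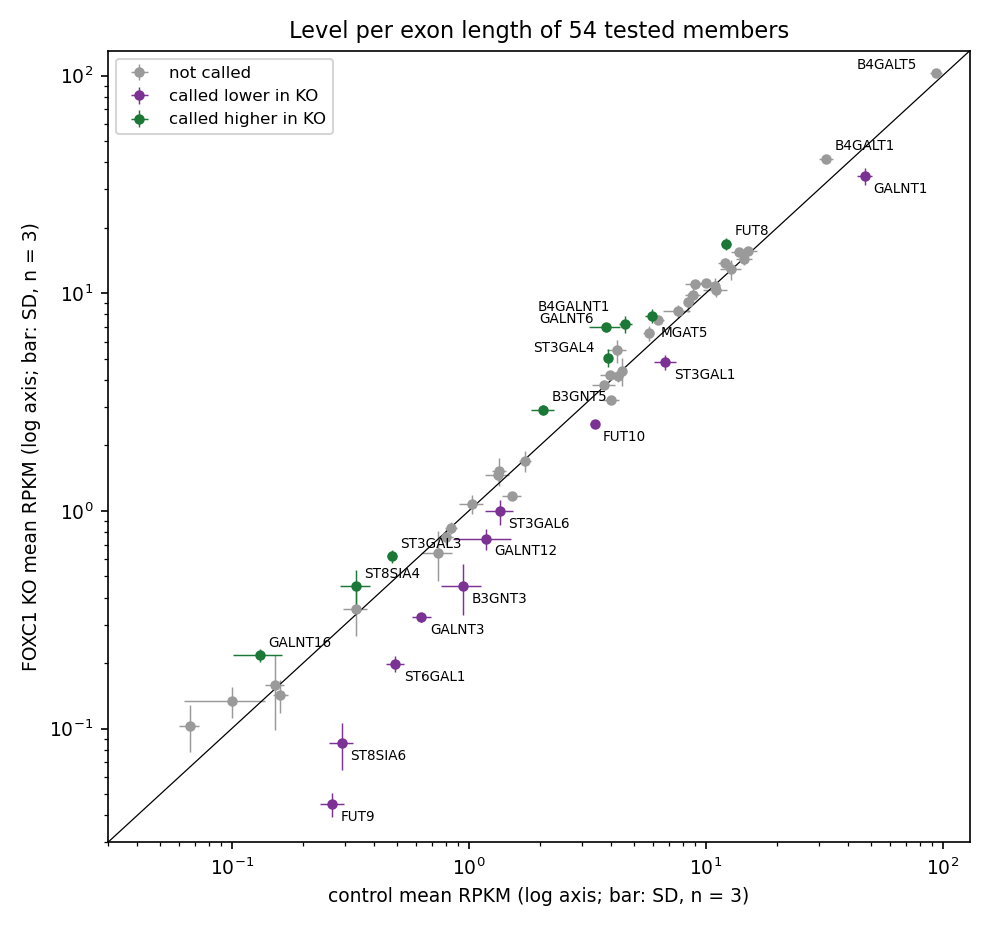
Mean RPKM of the members in KO (vertical axis) against control (horizontal axis), both on log scales, with bars for the SD (n = 3) and the line of equal level drawn. B4GALT5, B4GALT1 and GALNT1 lie at the top right, and FUT9, ST8SIA6 and ST6GAL1 lie below the line at levels under 1 RPKM in control.

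Donor sugars come from their own enzymes and transporters, and of the 22 such genes reported here 5 rose (22.7%, beside 7.57% of all genes called higher). The 5 that rose belong to the making and Golgi transport of UDP-N-acetylglucosamine, the donor of the B3GNT, GCNT and MGAT enzymes. UAP1, the last enzyme of that route, had 128, 135 and 125 CPM in control and 191, 198 and 216 CPM in KO. The groups were well separated (log2 fold change 0.64, SE 0.071, adjusted p = 3.30e-08). PGM3 rose from 71.1 ± 5.69 to 102 ± 6.04 CPM (log2 fold change 0.53, adjusted p = 3.82e-06), GFPT2 from 8.15 ± 1.15 to 12.9 ± 0.482 CPM (0.66, adjusted p = 3.37e-05) and the transporter gene SLC35A3 from 28.5 ± 0.765 to 38.7 ± 2.03 CPM (0.44, adjusted p = 0.000106). GNPNAT1 lay at the fold threshold (log2 fold change 0.39, adjusted p = 0.000199) and was called in 3 of the 6 fits that left out 1 library. GFPT1, which like GFPT2 makes the first committed step, was not called (log2 fold change 0.03, SE 0.073, adjusted p = 0.790). SLC35D2, named after its values were seen, encodes another Golgi transporter of nucleotide sugars including UDP-N-acetylglucosamine and was lower in KO without overlap but missed the fold threshold (41.4 and 33.0 CPM, log2 fold change -0.33, adjusted p = 0.00198). GMDS, the first enzyme of GDP-fucose synthesis, was not called (log2 fold change 0.26, adjusted p = 0.0190). None of the genes for CMP-sialic acid was called. GFPT1, GFPT2, GNPNAT1, PGM3, UAP1 and SLC35A3 were set together as 1 route after their values were seen.

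**Figure D4:**
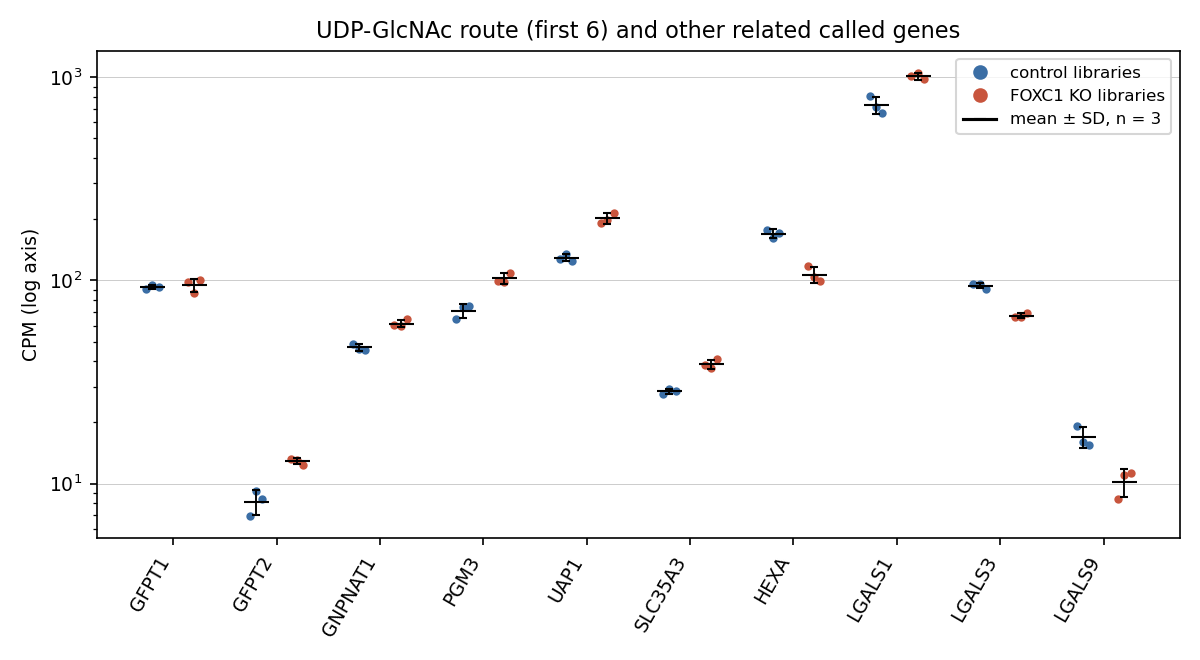
CPM of each library (vertical log axis) for GFPT1, GFPT2, GNPNAT1, PGM3, UAP1, SLC35A3, HEXA, LGALS1, LGALS3 and LGALS9, with points for the 3 control (blue) and 3 KO (red) libraries and black marks for mean ± SD. UAP1, PGM3, GFPT2, SLC35A3 and GNPNAT1 are higher in KO, and HEXA, LGALS3 and LGALS9 are lower.

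Among 14 tested glycosidases that trim these glycans 2 fell and none rose, 14.3% called and thus near the 16.0% of all genes. HEXA, the alpha chain of lysosomal hexosaminidase, fell from 170.1 ± 8.21 to 107 ± 9.38 CPM (log2 fold change -0.68, SE 0.074, adjusted p = 3.34e-08). MAN1C1, a Golgi mannosidase at a low level, fell from 1.87 ± 0.200 to 1.09 ± 0.0651 CPM (log2 fold change -0.78, SE 0.22, adjusted p = 0.00675), and its adjusted p by DESeq2 was 0.0721. FUCA1, the lysosomal fucosidase, missed the fold threshold (log2 fold change -0.34, adjusted p = 0.00247). Of 13 tested glycosyltransferases near to the members but outside the naming rule, B3GALNT1, which makes globoside, was the single call (log2 fold change -0.40, SE 0.078, adjusted p = 0.000264). This call held in 4 of the 6 fits that left out 1 library.

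Carriers and lectins, the proteins that bear or bind these glycans, gave 2 genes that fell and 1 that rose among the 10 tested genes reported here (8.39% of all genes were called lower and 7.57% higher). Galectins bind galactose on glycan arms, and they did not move together. LGALS1 had 808, 717 and 667 CPM in control and 1010, 1050 and 975 CPM in KO, with KO above the control range (log2 fold change 0.47, SE 0.075, adjusted p = 1.66e-05). LGALS3 had 95.6, 95.7 and 91.0 CPM in control and 66.0, 66.1 and 69.2 CPM in KO and was lower without overlap (log2 fold change -0.49, SE 0.071, adjusted p = 4.38e-06). LGALS9 fell from 17.0 ± 1.97 to 10.2 ± 1.63 CPM (log2 fold change -0.71, SE 0.11, adjusted p = 1.43e-05). Over the 4 related lists together, 5 of the 59 tested genes reported here fell and 6 rose, 18.6% called and near the 16.0% of all genes.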

How the data were processed

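RNA of J82 cells was sequenced by the authors as paired reads of 75 bases. The authors had aligned the reads to hg19 with STAR and deposited raw counts per gene from featureCounts (Subread) with GENCODE release 19. Tool versions, strand and the handling of reads with several matches are not given in the sources used here, so genes that overlap others or share sequence are uncertain. All 57820 rows named a gene, and each of the 6 columns matched 1 sample title.

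Symbols, coordinates and exon lengths were taken from GENCODE release 44 lifted to GRCh37, matched by gene identifier, with older symbols from RefSeq synonyms. B4GAT1 and B3GALT9 entered as members through such synonyms. Of the 57820 rows 55538 (96.05%) matched this annotation. Rows without a match had no symbol and could not become members. Counts were filtered with filterByExpr and scaled with TMM, and groups were compared by the robust quasi-likelihood test of edgeR 4.0.16 in R 4.3.3, with group as the only term and Benjamini-Hochberg adjustment over all 15647 genes. Standard errors came from the F statistic. CPM and RPKM were computed from the deposited counts. DESeq2 1.42.0, other scalings and filters, thinning, a replicate block, other fold thresholds and leaving out each library were alternatives. The model was tested on simulated data. Exact permutation tests used scipy 1.17.1. Library totals of 18408134 to 25350908 counts limit what low genes can show. Members and gene lists were chosen with earlier results of these data known. In the related lists 2 genes are not reported here and are left out of the counts. Every called member is named. Library values are given for at most 15 called members, by smallest p, that reach a mean of 1 CPM and whose groups do not overlap, and in each related list at most 5 genes by smallest p, beside GMDS and FUCA1, have values.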

Additional observations from a re-analysis of the deposited data

How the results depend on the processing

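Of the values followed under the alternatives, no single gene reversed, and of 32 single genes 15 values fell behind an adjusted p of 0.05 while 397 kept their direction and side. With a 2-fold threshold 4 members were lower and 0 higher by edgeR, whose largest positive log2 fold change among members was 0.88. Of the related genes 0 were lower and 0 higher. An unadjusted p under 0.05 was seen in 28 members, and the share of all genes at that p is not given here. With no fold threshold 13 related genes were lower and 12 higher. The adjusted p alone was passed by 25 of the 54 tested members. Over all genes tested, 4.07% were called at over 2-fold and 29.4% passed the adjusted p alone, in either direction. The split of these 2 shares by direction is not given here. A test against the 1.3-fold bound itself (glmTreat of edgeR, chosen after seeing the data) left 5 members lower and 2 higher. DESeq2 called 10 members lower and 7 higher. For glmTreat and DESeq2 the share of all genes called is not given here. The members' median of 0.083 was 0.040 by DESeq2, 0.033 with no filter and 0.040 with a mean of at least 50 counts. Leaving out each library in turn gave 8 to 11 members lower, 6 to 9 higher, a median of 0.044 to 0.10, and a FOXC1 log2 fold change of 0.25 to 0.35, with adjusted p = 0.0827 without control replicate 2 and 0.0784 without KO replicate 1. The cause of these moves was not tested. Of the 19 called members 12 passed both thresholds in all 6 fits without 1 library.

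Replicate numbers in the labels paired no libraries. Deviations of same-numbered libraries correlated at -0.040, -0.13 and 0.073, and no control library correlated best with its own number. With the replicate block 10 members were lower and 9 higher, 5 related genes lower and 6 higher, and FOXC1 had a log2 fold change of 0.30.

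The untested members had at most 15 counts in any library, and low called genes such as FUT9 in KO rest on few counts. Reads and protein were not analysed here.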

Other observations

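The called members were set beside their genomic neighbours within 1 Mb. Median log2 fold changes of the tested neighbours lay between -0.16 and 0.28, and in 10 of the 19 called members the median had the opposite sign to the member. The 5 tested neighbours of FUT9 had a median of 0.28, with 0 called lower and 1 higher by edgeR. Around ST3GAL3, 31 of 35 neighbours had its sign and 9 were called higher, with a median of 0.23. Of all 15647 genes tested 7804 lay above 0, while 8.39% were called lower and 7.57% higher. A cause that acts on a whole region was not tested.

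Some pairs of members with related acceptors, chosen after their values were seen, are given as ratios of RPKM with no test. The ratio of GALNT6 to GALNT3 was 6.54, 4.91 and 6.66 in the control libraries and 22.7, 22.6 and 19.4 in KO. The ratio of FUT4 to FUT9 was 5.33, 4.69 and 5.26 in control and 33.9, 32.0 and 35.6 in KO. ST3GAL4 relative to ST3GAL1 was at 0.546, 0.629 and 0.550 in control and at 0.928, 1.09 and 1.13 in KO. The separation of GALNT6 to GALNT3 and of ST3GAL4 to ST3GAL1 follows from values whose groups already lay apart in opposite directions. The pairs share the libraries and the values already described, so they add no support to them.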
